A study of Mus musculus with 18 samples.

Results

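The 10 genes described here carry, remodel or take up lipids in glial cells, and were followed in cultured neural stem cells (NSCs) and in the astrocytes made from them. They are named by symbol: Apoe, Clu, Apod, Lpl, Lcat, Pltp, Lrp1, Vldlr, Fabp5 and Fabp7. They are 10 of the 27997 genes of the table, and each was found there by its mouse Ensembl identifier. The rule names the genes and uses no measured value, but the genes were chosen with earlier results of these data known.

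The study asked how DNGR-1-traced spinal cord cells compare with established NSCs of the hippocampus, before and after differentiation into astrocytes. RNA was sequenced from 18 bulk cultures in 6 groups of 3 replicates. The tdTomato line (DNGR-1 +/- Tom+/-) and the EYFP line (DNGR-1 +/- EYFP+/-) were sorted by their reporter from spinal cord neurospheres of mice in which Cre, driven from the DNGR-1 locus Clec9a, switches on a ROSA reporter. The hippocampal line (DNGR-1+/+ by its label) came from the hippocampus of GlastCre mice with a floxed Huwe allele and a ROSA EYFP reporter, and whether that allele was recombined is not given in the sources used here. NSCs of every line grew on laminin with EGF and bFGF for 4 days, and astrocytes were the same lines kept with BMP4 at 20 ng/ml for 6 days. Fate, medium and days in culture therefore cannot be told apart. The 3 replicates of a group came from passages 10, 11 and 12 of 1 line, so that no p-value measures the spread between animals. The p-values measure the spread between passages. For fates over all lines, the way the change differs between lines also counts as spread. For traced against hippocampal cultures at the same fate, the difference between the traced lines does so too. A difference between lines cannot be told apart from one between the mice or strains they came from.

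In brain, astrocytes are the main source of lipoprotein particles. These are built on apolipoprotein E, loaded with cholesterol and phospholipid by membrane transporters such as Abca1, remodelled outside the cell by enzymes and transfer proteins, and taken up through endocytic lipoprotein receptors. Inside the cell, small fatty acid-binding proteins carry fatty acids, and Fabp7, also named brain lipid-binding protein, is a classical marker of radial glia and neural progenitors.

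Values are the deposited log2 expression values, relative to library size. Their form resembles that of a regularized log, by which weakly expressed genes are drawn in to their own mean, but no source used here names the transform. Changes of weak genes may therefore be understated. Read counts cannot be had from them, and the depth behind each value is unknown. To be tested, a gene had to reach 3.32 (a linear value of 10) in 3 or more libraries of the comparison. The medians of the absolute difference between replicates ranged from 0.0607 to 0.107 over the 18 replicate pairs, and no libraries held identical values. The 8 astrocyte markers summed, as linear values, to 31671 to 60978 in the 9 NSC libraries and to 114116 to 214848 in the 9 astrocyte libraries, where Gfap reached 15.14 to 16.40 on the log2 scale as group means against 9.06 to 9.30 in NSCs. Of the 6 microglia markers that could be looked up, Tmem119 alone reached 3.32 in at least 3 libraries, and P2ry12 was at most 3.57. The 7 oligodendrocyte lineage markers summed to 20445 to 25328 in NSCs and to 11522 to 15499 in astrocytes, with 4 of the 7 past 3.32, among them Olig2, Mbp and Cnp. The 3 ependymal markers that could be looked up summed to 688 to 1436 in NSCs, to 2018 to 2569 in the traced astrocytes and to 4489 to 5034 in the hippocampal astrocytes, and the 5 neuron markers to 154 to 285 in NSCs and 345 to 469 in astrocytes. The part of any of these in the results below was not tested. Huwe1, the gene floxed in the mice of the hippocampal line, had group means of 13.06 to 13.32 in all 6 groups.

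The first comparison was between fates. Most of the carriers rose with differentiation: Clu 39.1-fold, Lcat 9.53-fold, Apoe 9.15-fold, Pltp 5.13-fold, Lpl 2.95-fold and Lrp1 2.49-fold over all lines. Both fatty acid-binding proteins fell, Fabp5 1.83-fold and Fabp7 1.70-fold. Of the 9 members that could be tested, 6 were higher and 2 lower in astrocytes by limma (adjusted p under 0.05, Benjamini-Hochberg over all 15448 genes tested), and the 6 all rose by at least 1 on the log2 scale. The same test called 81.9% of all genes, 42.1% as higher and 39.8% as lower, and 14.6% as higher by at least 1. The median log2 difference was 1.56 over the 9 members and 0.02 over all genes tested. Being called is thus usual in this comparison, and it is the sizes that are described below. Where groups are said not to overlap, the share of all genes without overlap is not given, and this describes the values only. In these bulk cultures, fewer cells of a type and less RNA per cell cannot be told apart.

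**Figure D1:**
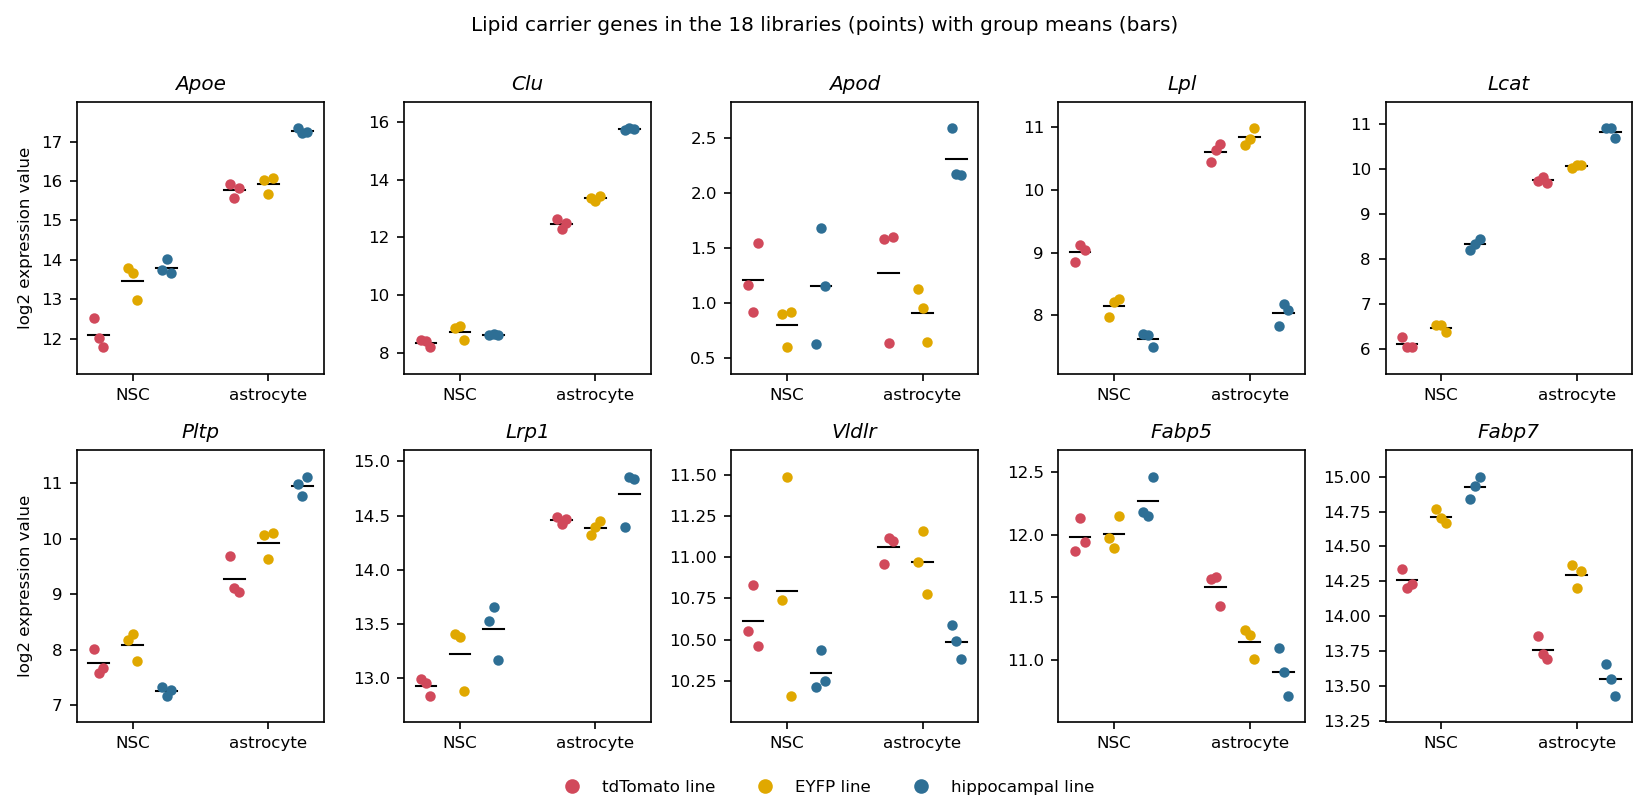
Log2 expression value (vertical axis, a separate scale per gene) of the 10 genes in NSC and astrocyte libraries of the 3 lines. Each point is a library and each bar the mean of 3. In Apoe, Clu, Lcat, Pltp and Lrp1 all 9 astrocyte libraries lay above all 9 NSC libraries, in Fabp5 all lay below, and Apod stayed between 0.60 and 2.59 throughout.

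Apoe (ENSMUSG00000002985, chr7:19696109-19699188 on GRCm38, minus strand) encodes the main apolipoprotein of brain particles. It stood at 12.52, 12.01 and 11.78 in the tdTomato NSCs, at 13.79, 13.66 and 12.98 in the EYFP NSCs and at 13.74, 14.01 and 13.67 in the hippocampal NSCs. In astrocytes it stood at 15.93, 15.56 and 15.82 in the tdTomato line, at 16.03, 15.67 and 16.08 in the EYFP line and at 17.33, 17.21 and 17.24 in the hippocampal line. The lowest astrocyte library was thus above the highest NSC library, and the hippocampal astrocytes stood above all others. The rise was 3.19 ± 0.17 on the log2 scale (SE, 9 against 9 libraries, limma adjusted p = 6.5e-12).

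Clu (ENSMUSG00000022037, chr14:65968483-65981547, plus strand) encodes clusterin, also named apolipoprotein J, a secreted chaperone that rides on lipoprotein particles. Its 9 NSC values lay close together, at 8.44, 8.39 and 8.18 in the tdTomato line, at 8.84, 8.92 and 8.43 in the EYFP line and at 8.60, 8.66 and 8.63 in the hippocampal line. The astrocytes separated by line, with 12.64, 12.29 and 12.48 in the tdTomato line, 13.37, 13.26 and 13.42 in the EYFP line and 15.72, 15.77 and 15.74 in the hippocampal line. No pair of astrocyte groups overlapped. The rise over all lines was 5.29 ± 0.32 (SE, limma adjusted p = 4.4e-11). In the separate lines it was 4.13 ± 0.09, 4.62 ± 0.11 and 7.12 ± 0.04, which is 17.5-fold, 24.6-fold and 139-fold.

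Apod (ENSMUSG00000022548, chr16:31296192-31314808, minus strand) encodes apolipoprotein D, a lipocalin that binds small lipids such as arachidonic acid. It reached 3.32 in 0 of 18 libraries and was tested in none of the comparisons. Its values were 0.60 to 1.69 in NSCs, 0.64 to 1.60 in the traced astrocytes, and 2.59, 2.18 and 2.17 in the hippocampal astrocytes. The last lay above the other 15 libraries, at levels where the deposited values have no fixed zero. Without the filter, limma gave a difference between fates of 0.44 ± 0.20 over all lines, which did not pass (SE, adjusted p = 0.078 over 27997 genes). It was 1.15 ± 0.32 in the hippocampal line (adjusted p = 0.031) and 0.06 and 0.11 in the tdTomato and EYFP lines (adjusted p = 0.9 and 0.67). Traced minus hippocampal was -1.22 ± 0.27 in astrocytes (adjusted p = 0.0075) and -0.15 ± 0.26 in NSCs (adjusted p = 0.78), and the difference of these changes was -1.06 ± 0.37 (adjusted p = 0.041). The tdTomato and EYFP lines did not pass against each other in NSCs, in astrocytes or in their change (adjusted p = 0.27, 0.66 and 1).

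Among the secreted enzymes and transfer proteins, Lcat (ENSMUSG00000035237, chr8:105939551-105943382, minus strand) encodes lecithin-cholesterol acyltransferase, which esterifies cholesterol on particles that carry Apoe or Apoa1. It stood at 6.27, 6.05 and 6.03 in the tdTomato NSCs, at 6.53, 6.52 and 6.37 in the EYFP NSCs and at 8.20, 8.33 and 8.45 in the hippocampal NSCs. In the astrocytes it stood at 9.75, 9.83 and 9.69, at 10.03, 10.10 and 10.10, and at 10.91, 10.91 and 10.70 in the same order of lines. None of the 6 groups overlapped with a neighbour in the order of their means. The rise was 3.25 ± 0.13 (SE, limma adjusted p = 1.9e-13).

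Pltp (ENSMUSG00000017754, chr2:164839518-164857711, minus strand) encodes the phospholipid transfer protein. It stood at 8.01, 7.58 and 7.66 in the tdTomato NSCs, at 8.17, 8.29 and 7.80 in the EYFP NSCs and at 7.33, 7.17 and 7.28 in the hippocampal NSCs. Astrocytes held 9.68, 9.11 and 9.04, then 10.06, 9.63 and 10.10, then 10.99, 10.77 and 11.12 in that order. The hippocampal line was thus the lowest as NSCs and the highest as astrocytes, with no overlap in either fate. The rise was 2.36 ± 0.25 (SE, limma adjusted p = 1.1e-07). Of all stretches of read length in its transcripts, 8.17% occur on the opposite strand in Ctsa and none on the same strand in another gene, so that reads of the pair can be separated only if strand was used in the counting, which is not given in the sources used here.

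Lpl (ENSMUSG00000015568, chr8:68880491-68907448, plus strand) encodes lipoprotein lipase, which frees fatty acids from triglyceride-rich particles. The NSCs held 8.86, 9.12 and 9.05 in the tdTomato line, 7.97, 8.22 and 8.27 in the EYFP line and 7.71, 7.69 and 7.49 in the hippocampal line. The astrocytes held 10.45, 10.63 and 10.73 in the tdTomato line, 10.72, 10.81 and 10.98 in the EYFP line and only 7.84, 8.18 and 8.09 in the hippocampal line. Hippocampal astrocytes overlapped with EYFP NSCs and lay below tdTomato NSCs. The rise was 1.56 ± 0.23 over all lines (SE, limma adjusted p = 7.6e-06) and 1.59 ± 0.09, 2.68 ± 0.09 and 0.41 ± 0.11 in the tdTomato, EYFP and hippocampal lines. Microglia also express Lpl, and the summed linear level of the 6 microglia markers was 64.3 to 85.7 in tdTomato NSCs, 39.7 to 61.6 in tdTomato astrocytes, 17.5 to 25.8 in EYFP astrocytes and at most 18.2 in the other groups. Most of this sum in the tdTomato groups was Tmem119, with group means of 6.15 in the NSCs and 5.36 in the astrocytes. Of the other microglia markers, Aif1 and Itgam were at most -2.01 in all libraries, Ptprc at most -1.14 and Csf1r at most 1.76, at the low end where the deposited values have no fixed zero, and P2ry12 had its highest group mean, 3.44, in the hippocampal astrocytes.

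Of the receptors, Lrp1 (ENSMUSG00000040249, chr10:127538161-127621148, minus strand) encodes a large endocytic receptor for Apoe and many other ligands. It stood at 12.99, 12.96 and 12.84 in the tdTomato NSCs, at 13.41, 13.38 and 12.88 in the EYFP NSCs and at 13.53, 13.66 and 13.17 in the hippocampal NSCs. The astrocytes held 14.49, 14.42 and 14.47, then 14.32, 14.40 and 14.45, then 14.40, 14.86 and 14.84. The fates did not overlap, and within each fate neighbouring groups did. The rise was 1.32 ± 0.09 (SE, limma adjusted p = 1.8e-10). Vldlr (ENSMUSG00000024924, chr19:27216484-27254231, plus strand), a receptor for Apoe-bearing particles and for reelin, had the smallest range of the 10 genes, 0.76 between its group means. It stood at 10.55, 10.83 and 10.46, at 10.74, 11.49 and 10.16, and at 10.21, 10.44 and 10.25 in the tdTomato, EYFP and hippocampal NSCs. In the astrocytes it ranged from 10.38 to 11.16, inside the range of the EYFP NSCs. Its difference over all lines was 0.27 ± 0.12 (SE, limma adjusted p = 0.055), just outside the threshold.

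That result depended on single EYFP NSC libraries, and also on the model used, as described under processing below. Without EYFP NSC replicate 2 the Vldlr difference was 0.38 ± 0.09 and its limma adjusted p was 0.00068, and without the NSC replicate 3 of that line the change within the EYFP line turned from 0.18 to -0.14. EYFP NSC replicate 3 was the lowest of its group in 7 of the 10 members, and its root mean square deviation from the group mean over all genes, 0.186, was within the 0.152 to 0.199 of the 18 libraries.

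The intracellular carriers went the other way. Fabp7 (ENSMUSG00000019874, chr10:57784881-57788450, plus strand) stood at 14.34, 14.20 and 14.23 in the tdTomato NSCs, at 14.77, 14.70 and 14.67 in the EYFP NSCs and at 14.84, 14.93 and 15.00 in the hippocampal NSCs. The astrocytes held 13.86, 13.73 and 13.69, then 14.37, 14.20 and 14.32, then 13.66, 13.55 and 13.43. Within each line the fates did not overlap, whereas EYFP astrocytes overlapped with tdTomato NSCs. The fall was -0.76 ± 0.11 (SE, limma adjusted p = 6.6e-06).

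Fabp5 (ENSMUSG00000027533, chr3:10012548-10016607, plus strand), the epidermal member of the family, which is also found in neural progenitors, stood between 11.87 and 12.46 in the NSCs. In astrocytes it stood at 11.65, 11.66 and 11.43 in the tdTomato line, at 11.24, 11.20 and 11.01 in the EYFP line and at 11.10, 10.91 and 10.72 in the hippocampal line. All 9 astrocyte libraries lay below all 9 NSC libraries. The fall was -0.87 ± 0.11 (SE, limma adjusted p = 1.3e-06). Of its stretches of read length 3.03% are shared with Gm6166 and Gm14328, which could take some of its reads.

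Within single lines, limma called 9 of 9 members in the tdTomato line (7 higher and 2 lower), 8 in the EYFP line (6 and 2) and 9 in the hippocampal line (7 and 2). Of all genes it called 79.3% in the tdTomato line (39.9% higher, 39.5% lower), 74.9% in the EYFP line (37.5% higher, 37.4% lower) and 77.3% in the hippocampal line (39.2% higher, 38.2% lower). The fitted directions were the same in the 3 lines for all 9 members, and Vldlr was the exception in call: 0.45 ± 0.09 in the tdTomato line (adjusted p = 0.0014), 0.18 ± 0.27 in the EYFP line (adjusted p = 0.57) and 0.19 ± 0.07 in the hippocampal line (adjusted p = 0.034). The hippocampal call of Vldlr was lost without any 1 of 4 libraries, NSC replicates 1 and 3 and astrocyte replicates 1 and 2, with values of 0.14 to 0.19, and with quantile normalization, without a filter, without a trend and in a model of all 6 groups. The tdTomato call was lost in the last of these (adjusted p = 0.059).

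**Figure D2:**
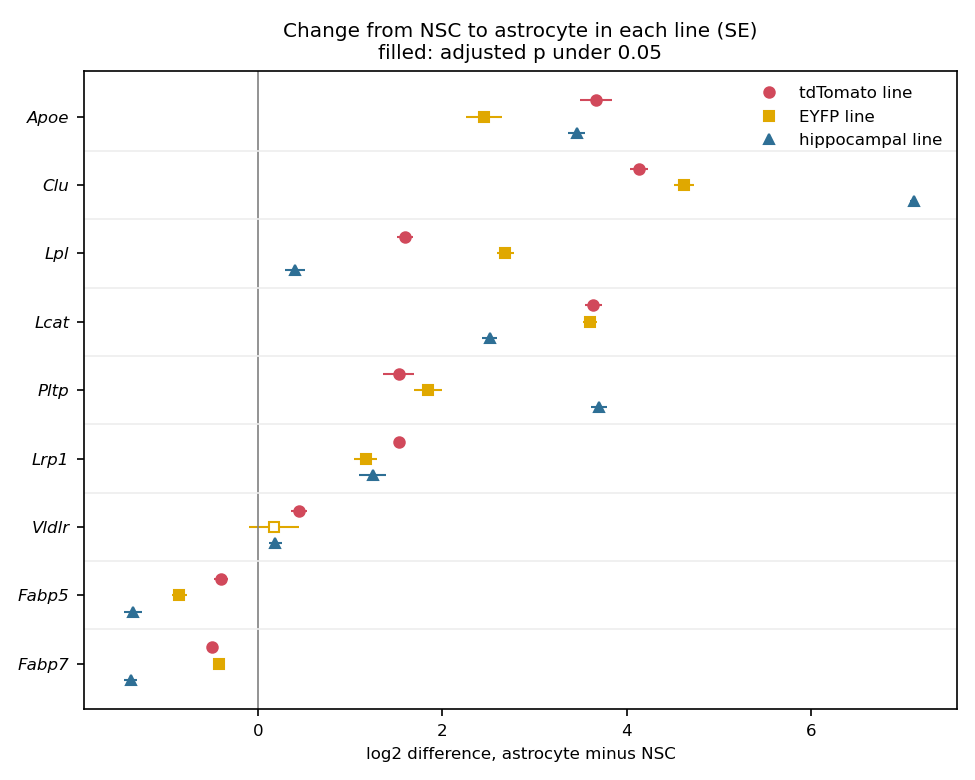
Log2 difference between astrocytes and NSCs (horizontal axis) of the 9 tested genes in each line, with bars for the SE (3 against 3 libraries). Filled symbols passed an adjusted p of 0.05. Clu and Pltp changed most in the hippocampal line, at 7.12 and 3.70, and Lpl changed least there, at 0.41.

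The change itself differed between lines for most members. In the test of the difference, over all 18 libraries, the change in the traced lines minus that in the hippocampal line was called for 6 of 9 members (46.2% of all genes were called). Clu rose less in the traced lines by -2.74 ± 0.13 and Pltp by -2.02 ± 0.21 (SE, limma adjusted p = 3.4e-11 and 4e-07). Lpl rose more by 1.73 ± 0.13 (adjusted p = 9.6e-09) and Lcat by 1.10 ± 0.10 (adjusted p = 9.2e-08). For the fatty acid-binding proteins the difference was also positive, since they fell less in the traced lines: 0.92 ± 0.08 for Fabp7 and 0.73 ± 0.13 for Fabp5 (adjusted p = 7.1e-08 and 0.00017). Apoe (-0.40 ± 0.23, adjusted p = 0.18), Lrp1 (0.10 ± 0.17) and Vldlr (0.12 ± 0.26) did not pass. Without EYFP NSC replicate 3 the value of Apoe was -0.52 with an adjusted p of 0.035.

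Between the traced lines, limma called the difference in change for 3 members (13.3% of all genes). Apoe rose more in the tdTomato than in the EYFP line by 1.21 ± 0.27 (SE, adjusted p = 0.0067), from lower NSCs to astrocytes that overlapped. Lpl rose less in the tdTomato line by -1.09 ± 0.15 (adjusted p = 0.0002), again with astrocytes that overlapped and NSCs that did not. Clu rose less by -0.49 ± 0.15 (adjusted p = 0.034). The call of Clu was lost, with an adjusted p of up to 0.096, without any 1 of tdTomato NSC replicates 1 and 2, EYFP NSC replicate 3, tdTomato astrocyte replicates 2 and 3 and EYFP astrocyte replicates 1 and 3.

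Since 4 of the members that rose together have a promoter window in the RefSeq table (GRCm38.p6), their sequences are shown here with that of Fabp7, which fell. Each window holds 250 bases before and 50 after a listed start, 5′ to 3′ in the direction of the gene. The capitals mark the letters of the searched motifs that were found on either strand: the GC box GGGCGG, the CCAAT box, the element GGCGCC bound by SMAD proteins downstream of BMP receptors, the STAT core TTCNNNGAA and TATAAA, the letters of a TATA box. GC and CCAAT boxes on the other strand read CCGCCC or, for the second, ATTGG. For Apoe RefSeq lists 3 starts, and the window is the most upstream, at chr7:19699139-19699438 on the minus strand. The others are Lcat at chr8:105943353-105943652 (minus), Lrp1 at chr10:127621099-127621398 (minus), Pltp at chr2:164857659-164857958 (minus) and Fabp7 at chr10:57784673-57784972 (plus). Clu, Lpl and Fabp5 had no window in the table and were not searched.
Apoe: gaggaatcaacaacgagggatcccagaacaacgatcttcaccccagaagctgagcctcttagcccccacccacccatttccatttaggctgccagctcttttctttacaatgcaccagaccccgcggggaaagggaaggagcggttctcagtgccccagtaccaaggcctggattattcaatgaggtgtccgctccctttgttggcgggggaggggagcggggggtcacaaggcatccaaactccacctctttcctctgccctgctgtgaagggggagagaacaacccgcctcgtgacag
Lcat: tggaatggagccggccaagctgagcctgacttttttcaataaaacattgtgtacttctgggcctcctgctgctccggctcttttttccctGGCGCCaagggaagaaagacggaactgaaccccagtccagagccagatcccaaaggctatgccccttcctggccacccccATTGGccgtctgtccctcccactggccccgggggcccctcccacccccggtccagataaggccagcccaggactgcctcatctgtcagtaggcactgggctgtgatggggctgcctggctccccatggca
Lrp1: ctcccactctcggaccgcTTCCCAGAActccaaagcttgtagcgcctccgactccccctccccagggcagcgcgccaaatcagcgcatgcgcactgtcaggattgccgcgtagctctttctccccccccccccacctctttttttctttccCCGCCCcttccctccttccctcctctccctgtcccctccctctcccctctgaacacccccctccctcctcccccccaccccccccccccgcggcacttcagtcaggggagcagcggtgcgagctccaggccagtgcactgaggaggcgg
Pltp: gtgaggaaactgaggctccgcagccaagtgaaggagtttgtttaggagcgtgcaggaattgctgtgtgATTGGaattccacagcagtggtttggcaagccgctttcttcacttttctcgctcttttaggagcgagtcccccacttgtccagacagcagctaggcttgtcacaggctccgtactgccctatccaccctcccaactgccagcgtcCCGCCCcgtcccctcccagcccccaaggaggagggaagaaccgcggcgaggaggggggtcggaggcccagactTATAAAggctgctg
Fabp7: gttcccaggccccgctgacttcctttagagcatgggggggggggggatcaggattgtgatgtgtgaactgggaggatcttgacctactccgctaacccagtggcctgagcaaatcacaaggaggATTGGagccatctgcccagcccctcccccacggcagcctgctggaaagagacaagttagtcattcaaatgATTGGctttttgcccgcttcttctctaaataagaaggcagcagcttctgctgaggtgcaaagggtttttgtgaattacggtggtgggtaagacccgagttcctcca

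No motif was common to the 4 windows of genes that rose. Lcat held a CCAAT box and GGCGCC, Lrp1 a GC box and a STAT core, Pltp a GC box, a CCAAT box and, at 37 bases after the start, TATAAA, and Fabp7 a pair of CCAAT boxes, at -126 and -56 from the start. The Apoe window held none of the letters searched, which included the AP-1 element TGANTCA, the full palindromic NFI site, the sterol regulatory element core TCACNCCAC and the DR4 repeat bound by liver X receptors. Of all 32851 windows of the table, 35.7% held a GC box, 37.4% a CCAAT box, 11.9% GGCGCC, 8.30% a STAT core and 13.6% TATAAA, so that none of these motifs is rare. The AP-1 element was held by 7.81%, the NFI site by 0.807%, the sterol element by 1.24% and DR4 by 0.0152%. Matches in the windows shown did not overlap each other. A match describes the sequence and shows no binding.

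Levels of different genes can be compared only per length. On the scale of log2 level per kilobase of all exons, Fabp7 was the highest of the 10 genes in each NSC group, at 13.93, 14.39 and 14.60 in the tdTomato, EYFP and hippocampal NSCs, with Apoe the second at 11.01, 12.38 and 12.71. In the astrocyte groups Apoe was the highest, at 14.68, 14.83 and 16.17, above Fabp7 at 13.44, 13.97 and 13.22. Clu moved from 6.56, 6.95 and 6.85 in NSCs to 10.69, 11.57 and 13.96 in astrocytes, and in the hippocampal astrocytes it passed Fabp7. Apod was the lowest in every group. With the longest coding transcript, Apoe in the tdTomato NSCs was the third, behind Fabp5. First places did not change with the length of the longest transcript or, added after the data were seen, of the longest coding transcript. Fabp5 depends on that choice, since its lengths are 3567, 3238 and 987 bases, and its level in the hippocampal astrocytes was 9.07, 9.21 or 10.93.

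**Figure D3:**
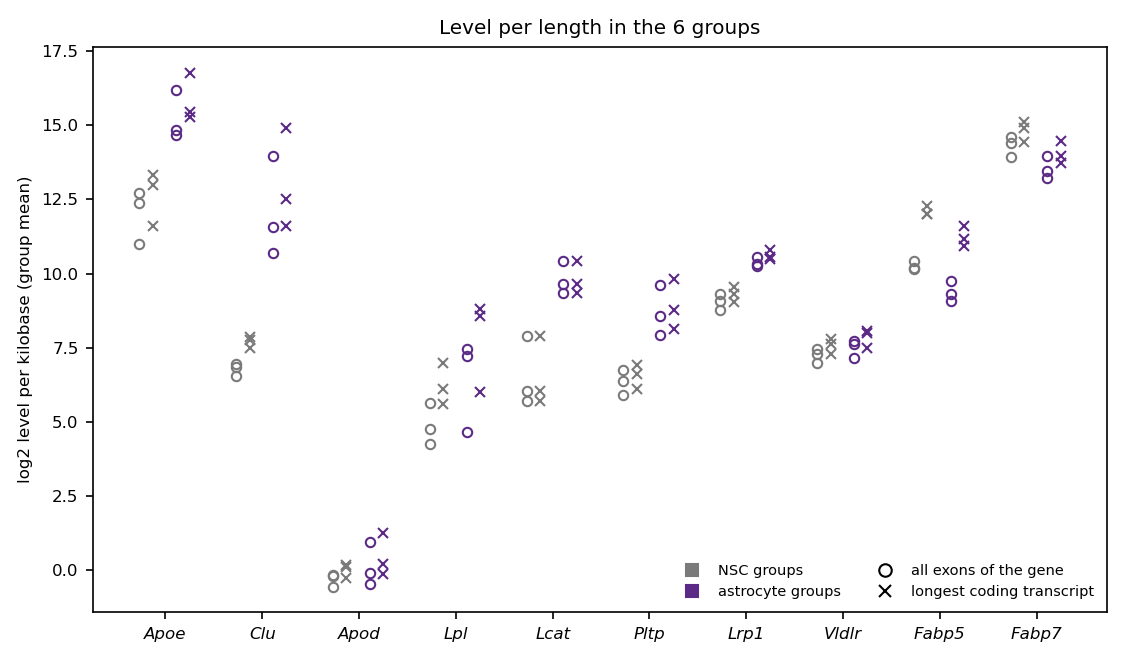
Group mean of the log2 level per kilobase (vertical axis) of the 10 genes in the 3 NSC groups (grey) and the 3 astrocyte groups (purple). Circles divide by the length of all exons of the gene and crosses by that of the longest coding transcript. Fabp7 is the highest in NSCs and Apoe in astrocytes by either length.

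The second comparison set the traced lines against the hippocampal line at the same fate. As astrocytes 4 secreted members stood lower in the traced cultures: Clu 7.13-fold, Apoe 2.66-fold, Pltp 2.56-fold and Lcat 1.90-fold. Lpl stood 6.41-fold higher in them. Limma called all 9 members tested, 4 higher and 5 lower in the traced astrocytes, where 52.0% of all genes were called, 24.1% as higher and 27.9% as lower. The log2 differences, traced minus hippocampal, were -2.83 ± 0.25 for Clu (SE, 6 against 3 libraries, adjusted p = 5.7e-06), -1.41 ± 0.12 for Apoe (4.6e-06), -1.36 ± 0.23 for Pltp (0.00065) and -0.92 ± 0.10 for Lcat (2.9e-05). Lpl gave 2.68 ± 0.11 (adjusted p = 3e-08). All of these had groups without overlap, which is given without the share over all genes.

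The other 4 were small. Vldlr was higher in the traced astrocytes by 0.53 ± 0.08 (SE, limma adjusted p = 0.00035), Fabp7 by 0.48 ± 0.16 (0.025) and Fabp5 by 0.46 ± 0.14 (0.021), and Lrp1 was lower by -0.27 ± 0.10 (0.032). Fabp7 and Fabp5 lost the call without hippocampal astrocyte replicate 2 or 3, and without the filter. Lrp1 lost it without EYFP astrocyte replicate 1 or 2 or hippocampal astrocyte replicate 2 or 3 (values of -0.19 to -0.27), and under both other scalings. The linear sum of the 8 astrocyte markers was 182530 to 214848 in the hippocampal astrocytes and 114116 to 158163 in the traced ones, and single markers differed in direction. Gfap was lower in the traced astrocytes, with group means of 15.14 and 15.67 in the tdTomato and EYFP lines against 16.40, and so were Gja1, with 12.97 and 12.72 against 14.66, and Slc1a3, with 14.80 and 14.88 against 15.40. Aldh1l1 was also lower in both traced lines, with 6.96 in the tdTomato line against 10.28. Slc1a2, with 15.07 and 14.79, lay above the hippocampal astrocytes. Aqp4, with 11.91 and 13.74 against 13.23, and S100b, with 11.63 and 11.13 against 11.24, lay on both sides. Glul spanned 13.16 to 13.38 over the 3 astrocyte means. The 5 neural stem cell and proliferation markers summed to 181062 to 226657 in the hippocampal astrocytes and 71596 to 79463 in the traced ones, beside 70540 to 84296 in NSCs, with Vim at 17.42 against 15.97 and 16.02 and Nes at 13.64 against 11.09 and 10.86. In the astrocytes most of this sum was Vim, and the proliferation markers did not follow it. Mki67 stood at 6.91, 6.54 and 6.72 in the tdTomato, EYFP and hippocampal astrocytes and Top2a at 8.08, 8.02 and 8.23, against at least 12.88 and 13.37 as group means in NSCs. From NSCs to astrocytes over all lines Mki67 changed by -6.21 and Top2a by -5.34 (limma adjusted p = 8.3e-20 and 7.1e-22). Sox2 was at 12.64 and 12.75 in the traced astrocytes and its mean was above them in the hippocampal ones. These marker differences are given as levels, and their part in the differences of Apoe and Clu was not tested.

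As NSCs fewer members differed. Limma called 4 of 9 (19.4% of all genes): Lcat was lower in the traced NSCs by -2.03 ± 0.13 (SE, adjusted p = 4e-06) and Fabp7 by -0.44 ± 0.14 (0.049), and Lpl was higher by 0.95 ± 0.25 (0.027) and Pltp by 0.66 ± 0.15 (0.014). The groups of these 4 did not overlap, again without the share over all genes. Apoe differed by -1.02 ± 0.43 and did not pass (adjusted p = 0.13), since the tdTomato NSCs, at 11.78 to 12.52, lay apart from the EYFP NSCs, at 12.98 to 13.79, which overlapped with the hippocampal NSCs at 13.67 to 14.01. Taken alone, an alternative added after the data were seen, the tdTomato NSCs differed from the hippocampal NSCs in all 9 members, with Apoe at -1.70 (adjusted p = 3.8e-05), and the EYFP NSCs in 4. The count of 4 fell to 2 without tdTomato NSC replicate 1 or hippocampal NSC replicate 1 and to 1 without hippocampal NSC replicate 2 or 3. Lcat was called in each of these fits. Lpl lost its call in all 4, and Fabp7 lost its own without any 1 of the 3 tdTomato or the 3 hippocampal NSC libraries (adjusted p of 0.073 to 0.17).

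Lcat and Pltp thus show the line in different ways. Lcat was the lower in the traced lines in both fates. Pltp was higher in traced NSCs and lower in traced astrocytes. Lpl was higher in the traced lines in both fates, by 0.95 and 2.68, and Fabp7 was lower in traced NSCs and higher in traced astrocytes, by -0.44 and 0.48.

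**Figure D4:**
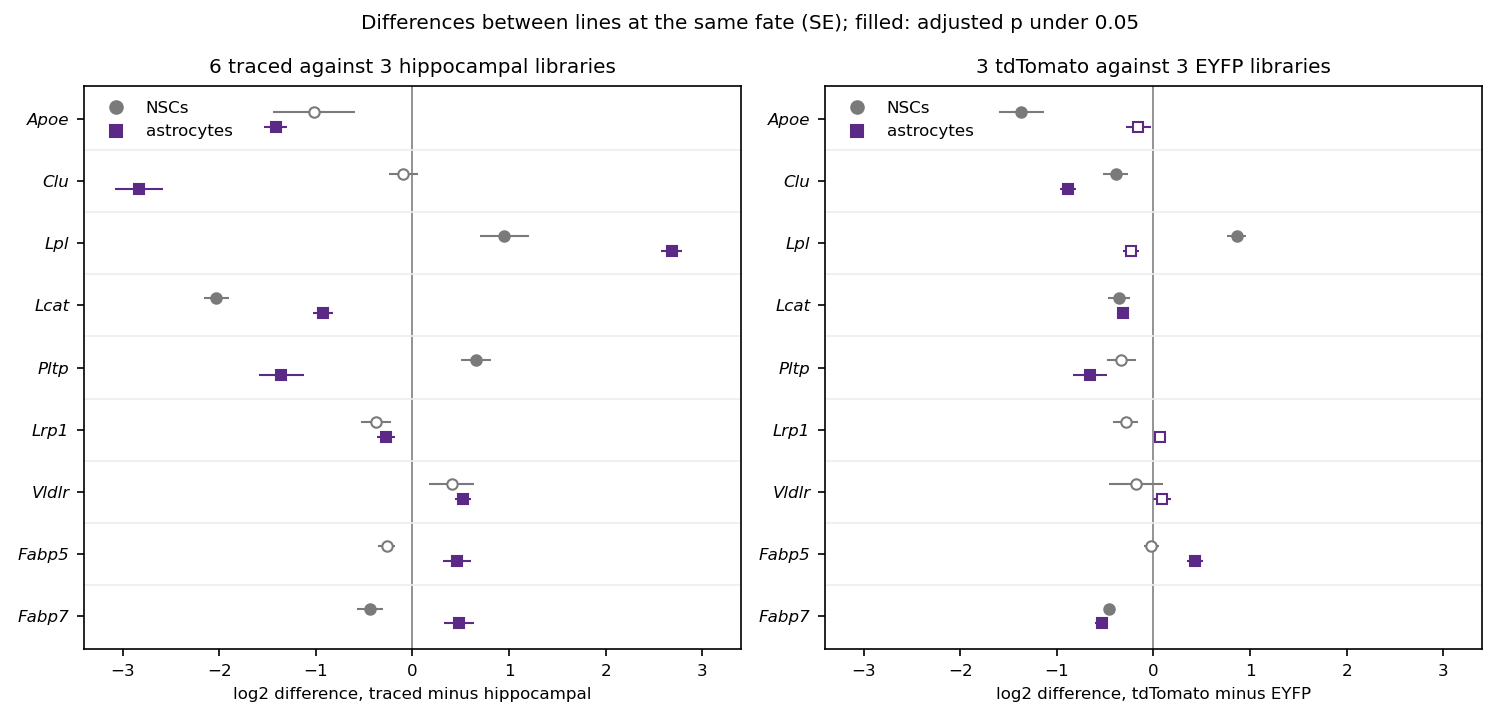
Log2 differences between lines at the same fate (horizontal axes) with bars for the SE, traced minus hippocampal on the left (6 against 3 libraries) and tdTomato minus EYFP on the right (3 against 3). Circles are NSCs, squares astrocytes, and filled symbols passed an adjusted p of 0.05. On the left Clu passed in astrocytes, at -2.83, and did not pass in NSCs, at -0.10.

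The third comparison was between the traced lines. In the NSCs limma called 5 of 9 members (33.2% of all genes). Apoe was lower in the tdTomato line by -1.37 ± 0.23 (SE, 3 against 3 libraries, adjusted p = 0.0034), Fabp7 by -0.46 ± 0.05 (0.00054), Clu by -0.39 ± 0.13 (0.049) and Lcat by -0.36 ± 0.11 (0.039), and Lpl was higher by 0.86 ± 0.10 (0.00052). Clu and Lcat lost their calls, leaving 3, without tdTomato NSC replicate 2 or 3, without EYFP NSC replicate 1 or 2, and without the filter. Clu, whose groups overlapped, also lost it without tdTomato NSC replicate 1 and under both other scalings. Without EYFP NSC replicate 3 there were 7 calls, among them Lrp1 at -0.46 and Pltp at -0.48.

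In the astrocytes 5 of 9 members were called (11.2% of all genes). Clu was lower in the tdTomato line by -0.88 ± 0.08 (SE, limma adjusted p = 0.00032), Pltp by -0.65 ± 0.18 (0.048), Fabp7 by -0.54 ± 0.07 (0.0013) and Lcat by -0.32 ± 0.05 (0.0058), and Fabp5 was higher by 0.43 ± 0.08 (0.0094). Without the filter the count was 3, since Fabp5 and Pltp lost their calls (adjusted p = 0.075 and 0.21). The values of Pltp overlapped, and its call was lost without tdTomato astrocyte replicate 2 or 3 or EYFP astrocyte replicate 1 or 3 (-0.54 to -0.59). Apoe, at -0.16 ± 0.13 (adjusted p = 0.54), and Lpl, at -0.23 ± 0.09 (0.13), were not called, whereas both had been in the NSCs.

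The other genes of lipid transport were described from 8 lists of 82 genes, 74 of them in the table and 56 tested between fates. Limma called 36 as higher and 12 as lower in astrocytes, with a median log2 difference of 0.45 beside 0.02 over all genes. These counts, 48 of 56 in all, stand beside 81.9% called over all genes, 42.1% as higher and 39.8% as lower. The same shares stand beside the count of each list below. The 48 include 10 genes, 7 called higher and 3 lower, that reached the filter in 1 fate only. Those 10 were thus tested only through the fate where they are high. For these, where named, levels are given in place of the test.

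Of 7 genes listed by name as apolipoproteins and tested beside the members, 4 were higher and 1, Apool, lower, with a change of -0.17. Of the 4, 3 passed the filter through astrocytes only. Apoc1, which inhibits lipases and lipid transfer and passed in both fates, rose by 3.17 (limma adjusted p = 4.3e-12). Apoh, which encodes beta-2-glycoprotein I, had group means of 2.59 to 3.26 in NSCs and 6.11 to 6.92 in astrocytes. Apoc1, Apoc4 and Apoc2 lie next to Apoe on chr7, and their lines were ordered otherwise. Apoc1 (chr7:19689481-19692660) reached 7.48 ± 0.29, 8.02 ± 0.14 and 6.43 ± 0.01 (SD, n = 3) in the tdTomato, EYFP and hippocampal astrocytes, so that it was higher in the traced astrocytes by 1.32 ± 0.19 (SE, limma adjusted p = 0.00019) while Apoe was lower there by -1.41. Apoc4 (chr7:19678083-19681479), named after its values were seen, reached 4.05 ± 0.10, 4.48 ± 0.28 and 1.15 ± 0.25, with 3.09% of its stretches shared with other genes. Apoc2, the cofactor of lipoprotein lipase, also named after its values were seen, reached 3.79 ± 2.34, 5.38 ± 0.71 and 1.98 ± 0.30. It shares 77.5% of its stretches of read length with Gm44805. Both genes passed the filter through the traced astrocytes, where they are high, so that their levels are given with no test.

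Among 12 receptors and regulators tested, 7 were higher and 4 lower. Sorl1, a sorting receptor that binds Apoe, rose by 2.80 and Lrp1b, a relative of Lrp1, by 1.66 (limma adjusted p = 1.5e-14 and 6.3e-12). Scarb1, the receptor for high-density lipoprotein, fell by 3.34 (adjusted p = 6e-11). It stood at 11.02 ± 0.09, 11.28 ± 0.11 and 10.63 ± 0.08 (SD, n = 3) in the tdTomato, EYFP and hippocampal NSCs and at 7.19 ± 0.10, 7.25 ± 0.05 and 8.46 ± 0.22 in the astrocytes, so that it fell while Lrp1 rose.

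Of 8 genes of lipid export tested, 6 were higher and 1, Npc1, lower. Abca1, which loads Apoe with lipid, rose by 2.65 (adjusted p = 3.9e-12), from 10.47 ± 0.44, 11.17 ± 0.33 and 11.40 ± 0.23 to 13.65 ± 0.07, 13.55 ± 0.12 and 13.79 ± 0.08 (SD, n = 3), and Abca5 rose by 1.77. Of 9 lipases and their partners 5 were higher and 3 lower. Angptl4, a secreted inhibitor of lipoprotein lipase, rose by 2.78 (limma adjusted p = 2.6e-10) and reached 6.24 ± 0.25, 6.62 ± 0.18 and 8.26 ± 0.07 in the tdTomato, EYFP and hippocampal astrocytes. Among the astrocytes Angptl4 was highest in the hippocampal line, where Lpl was lowest, whereas both genes rose with differentiation in every line. A link between them was not tested. Mgll, monoacylglycerol lipase, rose by 2.20.

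Of the other intracellular lipid-binding proteins 3 were tested, and the third, Fabp3, passed the filter only through astrocytes, with a group mean of 4.01 in the EYFP astrocytes and 1.78 to 2.60 elsewhere. Dbi, the acyl-CoA-binding protein, rose by 1.37 and Scp2, a sterol carrier, by 1.21 (limma adjusted p = 1.5e-14 and 1.1e-14). Of 3 secreted lipocalins 1 was called higher and 1 lower, both tested through 1 fate only. Lcn2 stood at 7.79 ± 0.63 in the hippocampal astrocytes (SD, n = 3), at 3.86 ± 0.55 and 3.82 ± 0.32 in the tdTomato and EYFP astrocytes and at 1.46 to 1.52 as group means in NSCs. Rbp4, the carrier of retinol, stood at 3.72 ± 0.31 in the tdTomato NSCs and at 0.86 to 2.02 as group means elsewhere. Of 4 genes of sterol esterification and storage 3 were higher and 1, tested through NSCs only, lower, none with both a change of at least 1 and fates that did not overlap. Of 10 transcription factors that sense sterols or fatty acids, 7 were higher and 1 lower. Nr1h3, the liver X receptor alpha, rose by 1.62 (limma adjusted p = 3.5e-10). Rxrg, with group means of 1.64 to 2.01 in NSCs and 3.45 to 5.72 in astrocytes, and Pparg, with 2.67 to 2.94 and 4.52 to 4.95, passed the filter through astrocytes only. Named after their values were seen, Nr1h2 and Srebf1 changed by 0.29 and 0.25, and Srebf2, the main activator of sterol synthesis, fell by 0.59 (limma adjusted p = 9.3e-06).

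In the astrocytes, 53 genes of these lists were tested between traced and hippocampal lines, with 14 called higher and 22 lower in the traced lines, and a median of -0.05 beside -0.01 over all genes. Of the 14, 4 had reached the filter in the traced astrocytes only. Over all genes 24.1% were higher and 27.9% lower. In the NSCs 6 were higher and 7 lower of 49, where 19.4% of all genes were called, and 1 of the 6 had reached the filter in the traced NSCs only.

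For each tested member whose group means spanned at least 1, the pair of protein-coding genes with the nearest profile over the 6 group means was taken, by Euclidean distance after the mean of each gene was removed, among 11803 candidates. Apoe was nearest to Daam2 (distance 0.64) and Angptl4 (0.85), Clu to C4b (0.82), a complement component, and Rnase1 (0.92), and Lpl to Sh3pxd2a and Serpinb5 (both 0.67). Lcat was nearest to Atp13a4 (1.04) and Thrsp (1.06), Pltp to Lrrn4cl (0.54) and Nbl1 (0.59), and Lrp1 to Zfp703 (0.17) and Dtna (0.21). Fabp5 was nearest to Fam213b and Slc13a3 (both 0.16) and Fabp7 to Metrnl (0.32) and Megf11 (0.34). The median distance of candidates was 1.33 to 6.95. None of these pairs holds another member. The 6 points share their libraries, and the likeness is a description.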

How the data were processed

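RNA from 18 bulk cultures, 6 groups of 3, was sequenced by the authors and aligned to GRCm38 with Ensembl 89 genes. The submitters' processing notes name Trimmomatic 0.36, STAR 2.5.2, RSEM 1.3.0 and DESeq2 1.18.1. The deposited table holds log2 expression values in the form of a regularized log that the authors made from gene counts, and the transform itself is not given in the sources used here. Of the values 29.4% are negative, and counts cannot be recovered. Depth is therefore unknown, and no counting interval could be given. Labels and methods of the study differ on the library kit and read length.

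Groups were taken from the sample labels. Differences were fitted with limma 3.58.1 in R 4.3.3 (lmFit, eBayes with a trend) over all genes at 3.32 or more in at least 3 of the libraries compared, with Benjamini-Hochberg adjustment over all genes tested and a threshold of 0.05. The comparison of fates had line as a covariate, the comparisons of lines used only the libraries of 1 fate, and differences of changes came from 1 model of 6 group means. A log2 difference is given with its SE.

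The 10 members and all gene lists were chosen with earlier results of these data known. All members were named. In each list, up to 3 genes that rose and 3 that fell were named, by the size of a called change of at least 1 with no overlap between fates, and others are marked where they occur. Some of the genes that this rule names are not reported here. Gene positions are from GENCODE M21, and shared stretches were counted at the read length of 75 bases. The fits were tested on simulated data, where 83.1% to 97% of 65 to 67 genes changed by 1 on the log2 scale were recovered over the 10 comparisons, with 5 to 14 false calls in each. Unlike the data, the simulated libraries held no other differences between lines or fates. These rates therefore need not hold for fits in which differences between lines count as spread. Alternatives were other filters, median centring, quantile normalization, no variance trend, a replicate block, 1 model of all groups and leaving out each library. Figures were drawn with matplotlib 3.10.9.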

Additional observations from a re-analysis of the deposited data

Results flagged for a closer look

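For the members below, the change from NSC to astrocyte differed between lines by a test of the difference itself in limma (Benjamini-Hochberg adjusted p under 0.05 over all genes). Between the traced lines and the hippocampal line, the difference of changes was -2.74 for Clu, -2.02 for Pltp, 1.73 for Lpl, 1.10 for Lcat, 0.92 for Fabp7 and 0.73 for Fabp5 on the log2 scale. These 6 remained called when any 1 library was left out. Between the tdTomato and the EYFP line, it was 1.21 for Apoe, -1.09 for Lpl and -0.49 for Clu. With 3 libraries in each of the 6 groups, single libraries far from their group were not tested for.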

How the results depend on the processing

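Most results kept their direction and call. Over the members, alternatives other than left-out libraries gave 779 values with the same direction and call, 30 that lost the call, 16 that gained it and 2 that turned sign. Left-out libraries gave 849, 44, 16 and 9. None of the 11 that turned sign was called as reported.

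The count of members that differed between traced and hippocampal NSCs, 4, became 2 without a filter, 7 in a model of all 6 groups and 9 with the tdTomato line alone (added after the data were seen). It ranged from 1 to 5 with 1 library left out. Between tdTomato and EYFP NSCs the count of 5 became 3 without a filter and ranged from 3 to 7 with 1 library left out. Between their astrocytes the count of 5 became 3 without a filter. With 1 library left out, the members whose change differed between the traced lines numbered 2 to 4.

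Same-numbered replicates of other lines at the same fate deviated together with a mean r of 0.106 (9 of 18 pairs over 0.1), and those of the same line at the other fate with a mean r of -0.023, so the numbers were not taken to pair the samples. With a replicate block, 2 members differed between traced and hippocampal NSCs, and the difference of Vldlr between fates, 0.27, had a limma adjusted p of 0.024.

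The values that turned sign were small, and with 1 library left out each had this range. Vldlr changed in the EYFP line by -0.14 (without EYFP NSC replicate 3) to 0.52. Its difference between tdTomato and EYFP NSCs was -0.50 to 0.17 (without EYFP NSC replicate 2), and between their astrocytes -0.004 (without EYFP astrocyte replicate 3) to 0.19. Its difference of changes was -0.04 (without EYFP NSC replicate 3) to 0.29 between traced and hippocampal lines and -0.08 (without EYFP NSC replicate 2) to 0.59 between the traced lines. Fabp5 differed between tdTomato and EYFP NSCs by -0.10 to 0.05, with 0.03 without tdTomato NSC replicate 1 and 0.05 without EYFP NSC replicate 3. The difference of changes of Lrp1 between traced and hippocampal lines was -0.05 (without hippocampal astrocyte replicate 1) to 0.24, and that of Lcat between the traced lines was -0.003 at the lowest (without tdTomato NSC replicate 3). With quantile normalization the latter was 0.11 for Fabp7. Clu in EYFP against hippocampal NSCs, added after the data were seen, was 0.10. The cause was not tested. The deposited values hold no depth, which limits weak genes such as Apod, Apoc2 and Apoc4.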

Other observations

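Plin2, which coats lipid droplets, was named after its values were seen. It rose with differentiation by 1.13 (limma adjusted p = 8.4e-05 over all lines) and was lower in the traced than in the hippocampal astrocytes by -1.99 (adjusted p = 1.5e-06). Apoa2, chosen in the same way, had group means of 3.70 and 3.51 in the tdTomato and EYFP NSCs and 1.73 in the hippocampal NSCs, and of 3.62, 3.58 and 1.80 in the astrocytes. It passed the filter through the traced lines, where it is higher, and is given with no test.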
